A study of Homo sapiens with 6 samples.

Results

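COV434 is an established human ovarian cell line that the study counts among its SCCOHT lines, SCCOHT being an ovarian small cell cancer that comes with hypercalcemia and lacks BRG1 protein. BRG1, the product of SMARCA4, is a motor subunit with which SWI/SNF complexes move nucleosomes. Cells of the same parental line received either a control plasmid, pCMV-neo or pCDNA3-neo (Control, 3 samples) or PBJ5-BRG1 (BRG1, 3 samples), in each case mixed with pBABE-puro for puromycin resistance. From 24 hours later both groups were kept for 3 days in 2 to 3 µg/ml puromycin, the dose of each sample not being given, and poly(A) RNA of the surviving pool was sequenced. The BRG1 samples therefore hold transiently transfected cells under a plasmid promoter and not a clone. The genes described here are the WNT ligands, their receptors and their antagonists. They were taken by symbol: every WNT, FZD (Frizzled), SFRP1 to SFRP5, DKK1 to DKK4 and RSPO1 to RSPO4 symbol of the table, with WIF1, LRP5, LRP6, AXIN2, LEF1, TCF7, NKD1, LGR5, RNF43 and ZNRF3. This gave 51 of the 19899 genes in the table, of which 19 were ligands, 10 Frizzled receptors, 2 co-receptors and 9 secreted antagonists. A further 5 belonged to the R-spondin axis, 2 were membrane E3 ligases and 4 were intracellular feedback or nuclear factors.

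WNT proteins are secreted lipid-modified ligands that bind a Frizzled receptor together with LRP5 or LRP6. Binding blocks the complex of AXIN, APC and GSK3 that otherwise marks beta-catenin for destruction, so that beta-catenin enters the nucleus and acts with LEF1 or TCF proteins on target genes, among them AXIN2. Secreted SFRP and WIF1 proteins bind the ligands and DKK1 binds LRP5 and LRP6. RNF43 and ZNRF3 remove Frizzled from the cell surface, and R-spondins acting through LGR receptors hold these ligases back. WNT ligands shape the female reproductive tract and the ovary during development.

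Promoter sequences were matched for 33 of the 51 members in RefSeq (GRCh38.p14), and the 250 bases before the transcription start were searched on both strands for the AP-1 letters TGANTCA, which read the same on either strand, and for the TCF/LEF core CTTTGA. AP-1 factors are known to recruit SWI/SNF complexes, and TCF/LEF proteins are the nuclear end of the WNT pathway. Of all 35116 promoters in the table, 6.57% held the AP-1 letters and 11.2% the TCF/LEF core in this window, against 1 and 1 of the 33 matched members. These shares count promoters, whereas members were counted as genes, some of which had more than 1 promoter. AXIN2, FZD7, SFRP1 and DKK3, which rose with BRG1, had no matched promoter and were not searched. The windows below are those of the ligands that rose most and of the pair of members with a match. Capitals mark the matched letters, and each sequence runs 5′ to 3′ on the strand of its gene. The WNT7A window (chr3:13880072-13880321, minus strand) and the WNT6 window (chr2:218859555-218859804, plus strand) held no match and were 80.4% and 79.2% G and C. The AP-1 letters lay before the downstream of 2 RNF43 starts (chr17:58402722-58402971, minus strand), at position -47 (-1 being the base before the start), and the DKK1 window (chr10:52314031-52314280, plus strand) held the TCF/LEF core at 2 places, of which the first, at position -149, is on the opposite strand. A match describes letters only.
WNT7A: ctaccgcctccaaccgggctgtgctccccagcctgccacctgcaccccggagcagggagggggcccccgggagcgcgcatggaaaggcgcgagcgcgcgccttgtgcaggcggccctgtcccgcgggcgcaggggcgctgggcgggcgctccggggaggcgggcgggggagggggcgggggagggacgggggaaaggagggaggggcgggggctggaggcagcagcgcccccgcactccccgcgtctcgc
WNT6: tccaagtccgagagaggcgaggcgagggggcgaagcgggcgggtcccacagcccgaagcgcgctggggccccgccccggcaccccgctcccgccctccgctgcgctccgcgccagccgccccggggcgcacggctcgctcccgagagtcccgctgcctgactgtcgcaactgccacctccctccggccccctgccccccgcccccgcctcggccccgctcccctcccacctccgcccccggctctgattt
RNF43: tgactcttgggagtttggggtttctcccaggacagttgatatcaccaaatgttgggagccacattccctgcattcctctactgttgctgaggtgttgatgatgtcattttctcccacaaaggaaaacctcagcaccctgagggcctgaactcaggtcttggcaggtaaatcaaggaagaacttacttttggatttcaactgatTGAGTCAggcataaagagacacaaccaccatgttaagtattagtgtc
DKK1: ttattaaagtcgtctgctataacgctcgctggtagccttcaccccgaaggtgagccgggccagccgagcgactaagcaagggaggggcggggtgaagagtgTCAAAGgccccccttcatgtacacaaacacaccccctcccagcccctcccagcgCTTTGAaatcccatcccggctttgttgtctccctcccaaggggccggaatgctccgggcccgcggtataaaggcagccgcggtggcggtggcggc

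The libraries held between 29699741 (BRG1 sample 3) and 63613710 (BRG1 sample 1) estimated counts. Values below are normalised counts, that is, the authors' estimated counts scaled to a common library size with TMM factors. SMARCA4, the transfected gene, lay between 1518 and 1762 normalised counts in Control and between 82237 and 111101 in BRG1 samples, plasmid transcripts included. Of the 6 granulosa markers, the defining FOXL2 and FSHR held at most 0.995 and 3.44 counts in any library. The summed granulosa markers ran from 309.6 to 493 normalised counts in Control and from 669.6 to 947 in BRG1 samples, where CYP19A1 rose from a mean of 24.4 to 333 (edgeR adjusted p 0.000718) and AMH, INHA and STAR overlapped between groups. Keratinocyte markers (3 genes) summed to 12.5 to 22.9 in Control and 452 to 2652 in BRG1 samples through KRT5 and KRT14, while TP63 lay between 1.96 and 10.9 over all 6. Endothelial markers (3 genes) summed to 28.1 to 95.1 and 3484 to 4024, most of it VWF, and CDH5 was called higher too whereas PECAM1 overlapped between groups (edgeR adjusted p 0.758). Fibroblast markers (5 genes) summed to 1269 to 1415 in Control and 1271 to 1515 in BRG1 samples, within which PDGFRB rose from a mean of 4.16 to 179.5 (edgeR adjusted p 0.000472) and the other 4 were not called. The part of these marker shifts in the results was not tested. In such bulk RNA, fewer cells that express a gene and less RNA per cell cannot be told apart.

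Whether BRG1 reexpression changed the WNT genes was tested with edgeR's quasi-likelihood test across 14246 genes. Of the 51 members, 39 had enough counts to be tested. In this test, which left out the replicate number, BRG1 raised 9 of them and lowered 0 of them. Raised were the ligands WNT7A and WNT6 and the receptors FZD7, FZD5 and FZD4. So were the secreted proteins SFRP1 and DKK3, the ligase RNF43 and the feedback scaffold AXIN2. All but FZD4 rose by more than 2-fold. This is 23.1% of the members tested, beside 9.57% of all genes tested that were called higher and 1.02% called lower. Without adjustment, at p under 0.05, 17 members stood higher and 0 stood lower, beside 14.5% and 6.10% of all genes tested. Over the 39 members the log2 fold changes had a median of 0.40, and over all genes tested one of -0.04. WNT7A and RNF43 passed the filter on low counts through the BRG1 samples alone, so that their difference is built into their being tested.

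DESeq2, which tests lower counts, called 12 of 45 members higher and 0 lower, beside 11.0% and 1.84% of all genes, and added WNT2B, SFRP4 and NKD1. Samples with the same number in the labels deviated together, and with the replicate number as a block edgeR called 12 members higher and 1 lower, beside 13.7% and 5.68% of all genes. DESeq2 with the block called 12 higher and 2 lower, beside 13.4% and 6.62%. The members added with the block were SFRP4, NKD1 and LEF1 as higher and LGR5 and RSPO2 (DESeq2 alone) as lower, and WNT2B was not called with it. The lowest BRG1 sample lay above the highest Control sample in 18 of the 39 tested members, beside 15.9% of all genes tested. This count includes WNT7A and RNF43, tested through the BRG1 samples alone. It also includes WNT6, WNT11, SFRP5, RSPO1 and LEF1, which were over the filter's cutoff in 1 Control library only. For these genes the separation is partly built into their being tested. The reverse was seen in 0 members, beside 11.1% of all genes.

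**Figure D1:**
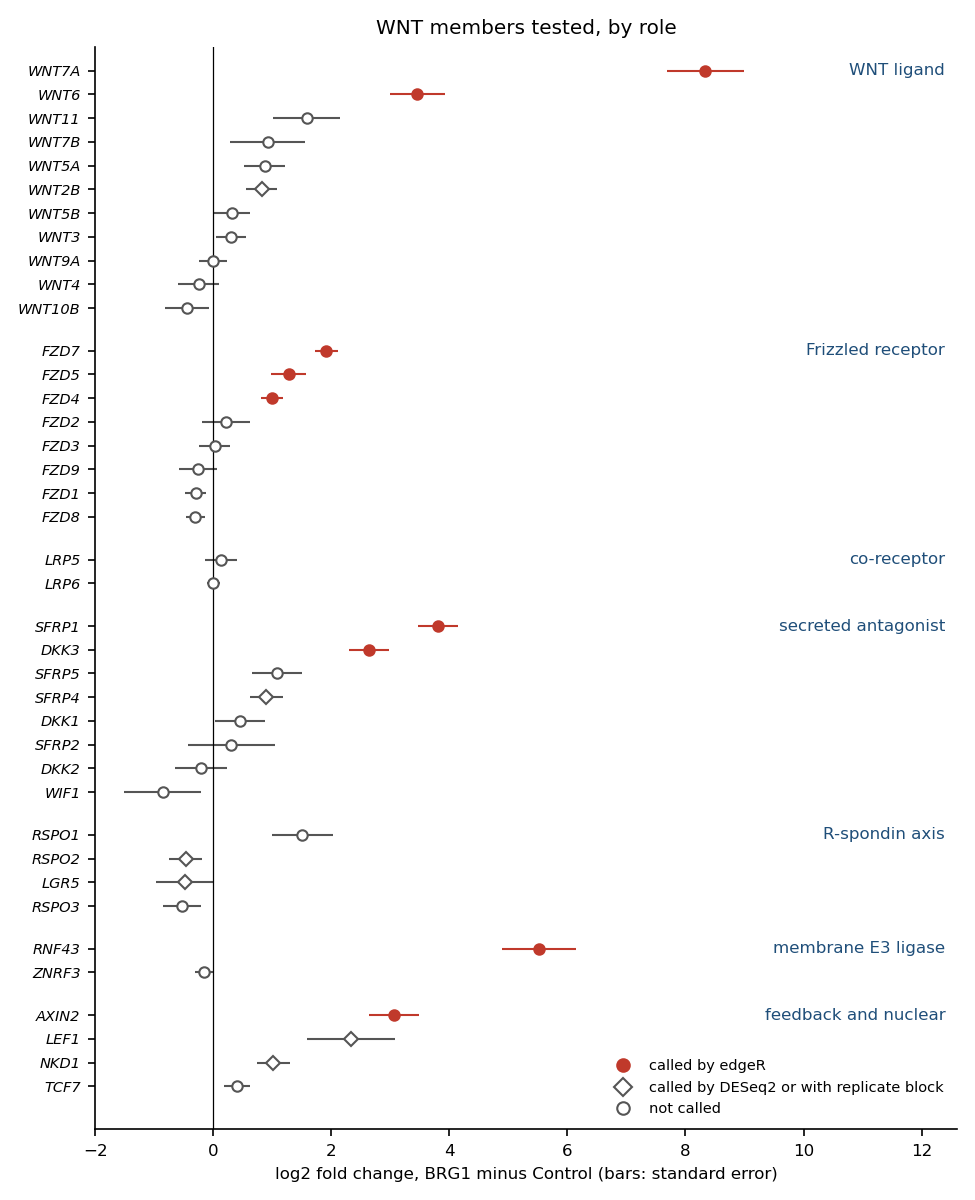
Log2 fold change, BRG1 minus Control, of the 39 members tested, grouped by role, with standard errors as bars. Filled red points mark the 9 members called higher by edgeR, from 8.34 for WNT7A to 1.00 for FZD4. Diamonds mark the 6 members called by DESeq2 or with the replicate block but not by edgeR without the block, and the co-receptors LRP5 and LRP6 lie beside 0.

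WNT7A, a ligand that patterns the oviduct and uterus, showed the largest change among the 39 members tested. It lies at chromosome 3, 13816258 to 13880071, minus strand (GRCh38). Control samples 1 to 3 had 1.28, 6.17 and 3.15 normalised counts of WNT7A, and BRG1 samples 1 to 3 had 1801, 1165 and 546. Every BRG1 sample thus stood far above every Control sample, with sample 3 lowest among them. The log2 fold change was 8.34 (standard error 0.65, edgeR adjusted p 0.000219). Control rests on 10 counts in all 3 libraries, against 4123 in BRG1 samples, and the ratio of these sums after scaling was 375 (95% interval 204 to 783), an interval for counting error only. WNT7A was called in each of the 13 alternative fits, with log2 fold changes between 7.88 and 8.85.

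WNT6, a ligand known from epithelial development, was the other ligand that rose. Normalised counts of WNT6 (chromosome 2, 218859805 to 218874233, plus strand) were 8.20, 11.8 and 5.29 in Control and 60.3, 102 and 116 in BRG1 samples. The groups did not overlap, and unlike for WNT7A the lowest BRG1 value was that of sample 1. On the log2 scale the change was 3.45 (standard error 0.47, edgeR adjusted p 0.00248), and it was called in all 13 alternative fits. The Control libraries held 23 counts in sum, against 273 in BRG1 samples. The scaled ratio of these sums was 10.8 (95% interval 7.05 to 17.3) for counting error only.

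No other ligand was called by edgeR. WNT2B, a ligand linked to gut and eye development, had 105, 108 and 149 normalised counts in Control samples and 260.4, 183 and 197 in BRG1 samples. These groups did not overlap, the log2 fold change was 0.82 (standard error 0.27), and edgeR did not call it (adjusted p 0.12) whereas DESeq2 did (adjusted p 0.0324). With the replicate block neither did (adjusted p 0.0546 in edgeR and 0.0507 in DESeq2). Of the exonic bases of WNT2B, 21.5% also belong to other genes, among them the opposite-strand gene ST7L. The level of ST7L was 901 ± 51.8 in Control and 793 ± 103 with BRG1 (SD, n = 3). Reads of the pair cannot be told apart where they overlap, since the libraries keep no strand. WNT11 and WNT5A, which act largely without beta-catenin, had no overlap between groups either and were not called, with log2 fold changes of 1.59 and 0.87 (edgeR adjusted p 0.152 and 0.212).

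WNT9A was the most abundant ligand per length in Control and was not called. Its normalised counts were 194, 252 and 212 in Control and 233, 239 and 181 in BRG1 samples, with a log2 fold change of -0.0058 (standard error 0.23, edgeR adjusted p 0.992). WNT3 had 120.2, 96.6 and 121 against 159.6, 127 and 131 in the same order, a log2 fold change of 0.30 (standard error 0.25, edgeR adjusted p 0.593). For WNT5B the values were 142, 81.4 and 112 against 166, 136 and 115, a log2 fold change of 0.32 (standard error 0.30, edgeR adjusted p 0.642). The groups overlapped for WNT5B and lay side by side without overlap for WNT3. WNT4, which directs ovarian development, WNT7B and WNT10B were not called, with log2 fold changes of -0.25, 0.92 and -0.44. The other 8 ligands were not tested: WNT1 and WNT2 had no count in any library, WNT8A and WNT9B held 3 counts or fewer in each, and WNT3A, WNT8B, WNT10A and WNT16 held at most 17.03.

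Levels of different genes were compared per kilobase of annotated exon, with all annotated exons of a gene joined. This length can exceed that of the transcripts present, so ranks and shares between genes are approximate. The summed level of the 19 ligands was 178, 156 and 172 normalised counts per kilobase in Control samples 1 to 3 and 643, 507 and 352 in BRG1 samples 1 to 3. WNT9A held 27.3% to 40.3% of this sum in Control, followed by WNT5B with 12.3% to 18.8%. In BRG1 samples WNT7A held 34.3% to 61.8% and WNT6 5.46% to 19.2%, while WNT9A held 9.05% to 12.8%. WNT7A thus went from rank 13 to rank 1 among the ligands by mean level per kilobase. The rank rests on 0.78 ± 0.545 in Control and 259 ± 139 with BRG1 (SD, n = 3), and in BRG1 sample 3 WNT7A had its smallest share.

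**Figure D2:**
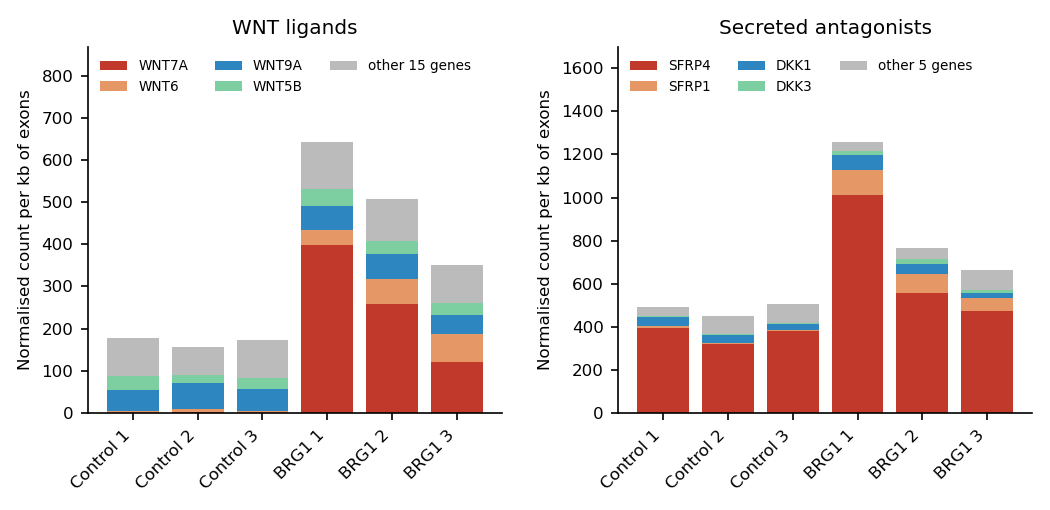
Summed normalised count per kilobase of exons in each sample, for the 19 WNT ligands (left) and the 9 secreted antagonists (right), with the leading genes in colour. The ligand sum is between 156 and 178 in Control and between 352 and 643 in BRG1 samples, where WNT7A forms a large part, and SFRP4 forms most of the antagonist sum in every sample.

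Among the Frizzled receptors, 3 of the 8 tested rose, and the most abundant was not called. FZD7 (chromosome 2, 202033855 to 202038441, plus strand), a receptor of beta-catenin signalling in many epithelia, had 906, 772 and 862 normalised counts in Control samples and 3913, 3298 and 2353 in BRG1 samples. All BRG1 samples were at more than double the highest Control sample. The log2 fold change was 1.91 (standard error 0.20, edgeR adjusted p 0.000706), and all 13 alternative fits called it.

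FZD5 (chromosome 2, 207762598 to 207769906, minus strand), a receptor for several WNT ligands, had 599, 542 and 489.5 normalised counts in Control samples and 1949, 1152 and 846 in BRG1 samples. Its BRG1 values ranged widely and stayed above Control, with a log2 fold change of 1.28 (standard error 0.30, edgeR adjusted p 0.0304). FZD4 (chromosome 11, 86945679 to 86955395, minus strand), also the receptor of norrin, was at 197, 196 and 203 in Control and at 361, 415 and 413 in BRG1 samples, close to a doubling with little spread in either group. Its log2 fold change was 1.00 (standard error 0.19, edgeR adjusted p 0.0122). Other annotated genes cover 18.9% of the exonic bases of FZD4. Each call was lost when some libraries were left out. For FZD5 these were Control 1, 2 or 3 or BRG1 2 (edgeR adjusted p 0.0852, 0.114, 0.111 and 0.0725), and for FZD4 Control 1 or 2 or BRG1 2 (edgeR adjusted p 0.0531, 0.0532 and 0.059).

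FZD8 dominated the family per length. It had 16835, 15471 and 18973 normalised counts in Control samples and 10726, 14764 and 16109 in BRG1 samples, with overlap between the groups and a log2 fold change of -0.30 (standard error 0.17, edgeR adjusted p 0.372). Its share of the summed Frizzled level per kilobase was 83.4% to 84.5% in Control and 62.4% to 74.8% in BRG1 samples, while that of FZD7 was 3.34% to 4.0% and 9.65% to 20.1%. The sum itself was 5027 ± 554 and 4850.1 ± 549.9 (SD, n = 3) and overlapped between groups. FZD1, FZD2, FZD3 and FZD9 were not called, with log2 fold changes of -0.30, 0.22, 0.026 and -0.26 and standard errors of 0.17, 0.41, 0.27 and 0.32. For FZD1 the samples stood at 1087, 1203 and 1266 in Control and 768, 1026 and 1099 with BRG1, and for FZD2 at 479, 382 and 945 against 631, 454 and 1027. For FZD3 they stood at 545, 416 and 557 against 714, 397 and 434, and for FZD9 at 356, 283 and 408 against 198, 246 and 433. In each of these 4 receptors the groups overlapped. FZD6 and FZD10 held at most 7.11 and 13.01 counts in any library and were not tested.

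Neither co-receptor changed beyond its error. LRP6 had 2664, 2349 and 2154 normalised counts in Control samples and 2368, 2434 and 2381 in BRG1 samples, a log2 fold change of 0.0037 (standard error 0.12, edgeR adjusted p 0.99). LRP5 had 2375, 1845 and 3784 against 3127, 2264 and 3344, a log2 fold change of 0.12 (standard error 0.27, edgeR adjusted p 0.858).

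**Figure D3:**
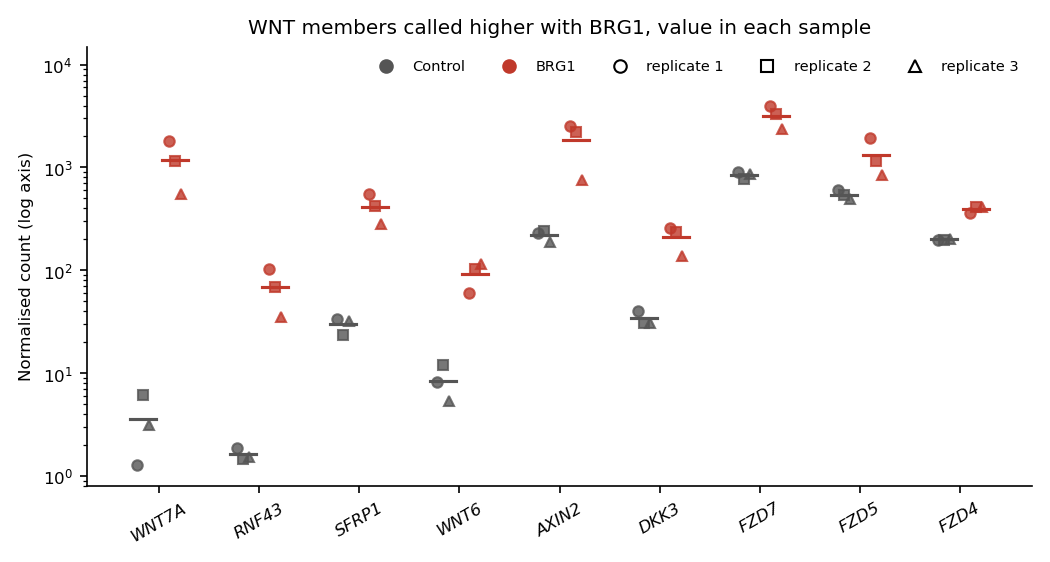
Normalised count (log axis) of the 9 members called higher by edgeR in each of the 3 Control (grey) and 3 BRG1 (red) samples, with the group mean as a line and the replicate number as the symbol. The groups do not overlap in any of the 9, and BRG1 sample 3 is the lowest BRG1 sample in 7 of them.

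Of the secreted antagonists, 2 of the 8 tested rose. SFRP1, which binds WNT proteins through a domain like that of Frizzled, had 33.3, 23.7 and 32.0 normalised counts in Control samples and 545, 419 and 284 in BRG1 samples. The groups were far apart, with a log2 fold change of 3.80 (standard error 0.34, edgeR adjusted p 0.000379). DKK3 (chromosome 11, 11956207 to 12009769, minus strand), a divergent member of the Dickkopf family whose place in WNT signalling is less settled than that of DKK1, had 40.4, 30.8 and 30.9 in Control and 256, 237 and 136 in BRG1 samples. Its log2 fold change was 2.64 (standard error 0.34, edgeR adjusted p 0.00207). Both were called in all 13 alternative fits. Exons of USP47 on the opposite strand cover part of the 47.5% of DKK3 exonic bases that other genes share. USP47 had 4399 ± 309.8 normalised counts over the Control samples and 4293 ± 478 over the BRG1 samples (SD, n = 3), a ratio of 0.976. Where they overlap, reads of DKK3 and USP47 cannot be told apart, and the part of shared reads in the DKK3 rise was not tested.

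SFRP4 was the most abundant secreted antagonist per length, at 71.4% to 80.1% of the summed level in Control and 71.5% to 80.4% in BRG1 samples. It had 1386, 1128 and 1334 normalised counts in Control samples and 3549, 1946 and 1662 in BRG1 samples, without overlap. The log2 fold change was 0.90 (standard error 0.28). edgeR did not call it (adjusted p 0.096), DESeq2 did (adjusted p 0.0239), and with the replicate block edgeR called it too (adjusted p 0.0197). The summed antagonist level was 493, 451 and 504 per kilobase in Control and 1259, 766 and 662 in BRG1 samples.

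DKK1, the classical LRP5 and LRP6 antagonist, was not called, with 99.0, 78.0 and 58.8 normalised counts in Control samples and 154, 109.9 and 54.6 in BRG1 samples (log2 fold change 0.45, standard error 0.42, edgeR adjusted p 0.633). DKK2 and WIF1 spread widely within each group. DKK2 had 59.2, 105 and 169.9 against 76.3, 78.5 and 138 normalised counts, a log2 fold change of -0.21 (standard error 0.44). For WIF1 the values were 42.6, 106 and 70.2 against 12.3, 34.7 and 76.9, a log2 fold change of -0.86 (standard error 0.65). SFRP5 did not overlap between the groups and SFRP2 did, with log2 fold changes of 1.08 and 0.30 (edgeR adjusted p 0.199 and 0.877). DKK4 stayed at 3 counts or fewer in every library.

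No gene of the R-spondin axis was called without the pairing. RSPO2, a secreted amplifier of WNT signals, was the second most abundant of the 51 members per kilobase in Control and in BRG1 samples. RSPO2 had 6337, 6340.4 and 8299 normalised counts in Control samples and 2995, 5205 and 6956 in BRG1 samples, and the groups overlapped (log2 fold change -0.47, standard error 0.28, edgeR adjusted p 0.425). Within replicate numbers 1 to 3 the ratio of BRG1 to Control was 0.473, 0.821 and 0.838, below 1 in each. With the replicate block the edgeR adjusted p was 0.0602 and that of DESeq2 0.0098.

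LGR5, an R-spondin receptor and stem cell marker, had 692, 827 and 1645 normalised counts in Control samples and 373, 614 and 1291 in BRG1 samples. Sample 3 was the highest of either group, and the groups overlapped (log2 fold change -0.48, standard error 0.49, edgeR adjusted p 0.665). The ratios within numbers were 0.539, 0.743 and 0.785, and with the replicate block LGR5 was called lower by edgeR (log2 fold change -0.55, adjusted p 0.0309) and by DESeq2 (adjusted p 0.009). Without the block, the LGR5 log2 fold change ran from -0.0097 without Control sample 3 to -1.07 without BRG1 sample 3. RSPO3 had 109.6, 133 and 159 against 63.9, 99.8 and 116, ratios within numbers of 0.583, 0.75 and 0.729, and no call with the block (edgeR adjusted p 0.15). RSPO1 was low and not called although the groups did not overlap, at 2.76, 9.36 and 11.0 in Control and 23.6, 25.2 and 20.8 in BRG1 samples (log2 fold change 1.51, edgeR adjusted p 0.131). RSPO4 held at most 4.98 counts and was not tested.

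**Figure D4:**
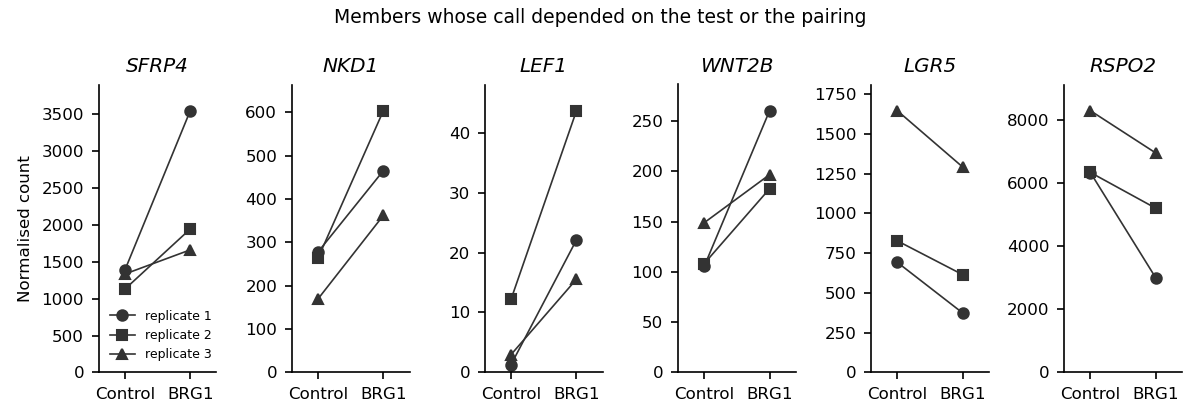
Normalised counts of the 6 members whose call depended on the test or the pairing, with lines joining Control and BRG1 samples of the same replicate number and a linear axis from 0. Within each number SFRP4, NKD1, LEF1 and WNT2B are higher and LGR5 and RSPO2 lower in the BRG1 sample.

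Of the 2 membrane ligases, RNF43 rose and ZNRF3 was not called. RNF43 (chromosome 17, 58353676 to 58417595, minus strand) was nearly absent from Control, with 1.85, 1.47 and 1.52 normalised counts, and had 103, 68.2 and 35.4 in BRG1 samples. The summed counts were 4 and 240, a scaled ratio of 54.6 (95% interval 21.1 to 202) for counting error alone. The fitted log2 fold change was 5.52 (standard error 0.63, edgeR adjusted p 0.00112), and all 13 alternative fits called it. Other annotated genes cover 69.0% of its exonic bases, among them a readthrough gene on the same strand and TSPOAP1-AS1 on the other, so the division of reads is uncertain. ZNRF3, its homologue, had 1164, 1161 and 950.4 in Control and 877, 1086 and 974 in BRG1 samples, a log2 fold change of -0.16 (standard error 0.16, edgeR adjusted p 0.658). ZNRF3 therefore still held 88.5% to 96.1% of the summed ligase level per kilobase in BRG1 samples, beside 99.8% to 99.9% in Control.

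AXIN2, a scaffold of the beta-catenin destruction complex and a widely used readout of beta-catenin activity, rose with BRG1. At chromosome 17, 65528563 to 65561648, minus strand, it had 232, 238 and 190.0 normalised counts in Control samples and 2536, 2193 and 758 in BRG1 samples. BRG1 samples 1 and 2 lay together and sample 3 lay lower, still above every Control sample. The log2 fold change was 3.06 (standard error 0.43, edgeR adjusted p 0.00293), and AXIN2 was called in all 13 alternative fits. Other annotated genes, among them a readthrough gene on the same strand, cover 25.3% of its exonic bases. By mean level per kilobase AXIN2 went from 42.3 ± 5.03 to 352 ± 181 (SD, n = 3).

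NKD1, an inhibitor that binds Dishevelled and is itself a WNT target, had 278, 263 and 169 normalised counts in Control samples and 466, 604 and 362 in BRG1 samples. The groups did not overlap, and the log2 fold change was 1.02 (standard error 0.28). It missed the threshold of edgeR (adjusted p 0.0651) and passed that of DESeq2 (adjusted p 0.00461), that of edgeR with the replicate block (adjusted p 0.00535) and that of edgeR without BRG1 sample 3 (adjusted p 0.0205). LEF1, a DNA-binding partner of beta-catenin, was low throughout, with 1.30, 12.2 and 2.98 in Control and 22.1, 43.7 and 15.6 in BRG1 samples. Its log2 fold change of 2.33 (standard error 0.75) was not called by edgeR (adjusted p 0.11) but was with the block (adjusted p 0.0216). Without Control sample 2 the LEF1 log2 fold change was 3.48, and without BRG1 sample 2 it was 1.83. TCF7, the other such partner among the members, overlapped between groups at 573, 444 and 384 against 609.6, 721 and 512 (log2 fold change 0.40, standard error 0.22, edgeR adjusted p 0.377).

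BRG1 sample 3 was the lowest BRG1 sample in 7 of the 9 called members, WNT6 and FZD4 being the exceptions. It was also the shallowest library. Its SMARCA4 level, 82944 normalised counts, lay beside the 82237 of BRG1 sample 2. Without it edgeR called 11 members higher, the 9 above with SFRP4 and NKD1, and 0 lower.

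A list of 59 other WNT pathway genes was examined for comparison, of which 53 were tested. edgeR called 9 higher and 0 lower (11 and 4 without adjustment, at p under 0.05), 17.0% of those tested beside the 9.57% of all genes given above. Of these 9, TNFRSF19 and VANGL2 passed the filter through the BRG1 samples alone, so that their difference is built into their being tested, and the log2 fold changes of the list had a median of 0.064. The number called higher was 4, 5 and 3 without Control replicate 1, 2 and 3, and 5 without BRG1 replicate 2. DESeq2 called 10 of 57 higher and 0 lower, beside 11.0% and 1.84% of all genes. The receptor ROR1, named after its values were seen, was the gene it added. ROR1 had 29.0, 0.971 and 9.31 normalised counts in Control and 172, 83.1 and 35.6 in BRG1 samples (edgeR log2 fold change 2.89). Its adjusted p was 0.0942 in edgeR and 0.00913 in DESeq2, and with the replicate block 0.0128 in edgeR and 0.00022 in DESeq2. With the replicate block edgeR called 11 of 53 higher and 3 lower, beside 13.7% and 5.68%, and DESeq2 12 and 4 of 57, beside 13.4% and 6.62%, so that the shares called lower were near those of all genes.

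TNFRSF19, a receptor gene known as a beta-catenin target, had 1.46, 3.31 and 0.903 normalised counts in Control samples and 32.4, 51.8 and 37.4 in BRG1 samples (log2 fold change 4.42, standard error 0.59, edgeR adjusted p 0.00229). PRICKLE1, of the planar polarity branch, had 139, 167 and 99.5 against 943, 1082 and 396 (log2 fold change 2.59, standard error 0.40, edgeR adjusted p 0.00481). Of the exonic bases of PRICKLE1, 23.7% also belong to other genes. TLE1, a corepressor that binds TCF proteins, had 145, 183 and 174 against 792, 642 and 367 (log2 fold change 1.85, standard error 0.30, edgeR adjusted p 0.00611). TNFRSF19 rests on 5 counts in the 3 Control libraries and 128 in BRG1 samples, a scaled ratio of 23.3 (95% interval 9.73 to 73.0) for counting error, and its log2 fold change was 5.20 without Control sample 2. All 3 kept their call in the 13 alternative fits.

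The other 6 called genes, named after their values were seen, were the target genes CCND1 and BAMBI, the receptor LGR4, the planar polarity gene VANGL2, the membrane inhibitor TPBG and the WNT secretion factor WLS. Their log2 fold changes were 2.75 for CCND1, 4.21 for BAMBI, 1.85 for LGR4, 2.16 for VANGL2, 1.51 for TPBG and 0.49 for WLS. Each of these 6 lost its call when some libraries were left out, with edgeR adjusted p rising to 0.0911 for CCND1, 0.0617 for BAMBI, 0.156 for LGR4, 0.139 for VANGL2, 0.194 for TPBG and 0.134 for WLS. Without BRG1 sample 1 the log2 fold change of LGR4 was 1.06. VANGL2 also lost its call under DESeq2 with the replicate block (adjusted p 0.0701). Limma-voom did not call VANGL2, BAMBI or LGR4 (adjusted p 0.0518, 0.0716 and 0.0951). MYC, a target gene chosen after its values were seen, overlapped between groups (log2 fold change 0.26, edgeR adjusted p 0.692) and was called higher by DESeq2 with the block alone (adjusted p 0.0126). The remaining listed target, SP5, was not tested. It held 15.0 counts in BRG1 sample 3 and at most 0.731 in any other library. FRZB, SOST, CER1, NOTUM and APCDD1 had too few counts to be tested either.

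CTNNB1, which encodes beta-catenin, was not called, with 15211, 15285 and 15709 normalised counts in Control samples and 17987, 17042 and 16385 in BRG1 samples (log2 fold change 0.15, standard error 0.092, edgeR adjusted p 0.425). None of the 17 cytoplasmic genes of the list was called by edgeR or DESeq2 without the block, while without adjustment 3 of them were lower at p under 0.05. With the block edgeR called 2 of them lower, APC2 (log2 fold change -0.65, adjusted p 0.00488) and GSK3B (log2 fold change -0.39, adjusted p 0.0332), parts of the beta-catenin destruction machinery that were named after their values were seen. Of the 10 nuclear genes of the list, edgeR with the block called 2 higher, TLE1 and BCL9L (adjusted p 0.0112), and 1 lower, BCL9 (adjusted p 0.0415). DESeq2 with the block also called TLE2 lower (adjusted p 0.0336) and TCF7L1 higher (adjusted p 0.0342). Except for TLE1, these too were named after their values were seen.

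**Figure D5:**
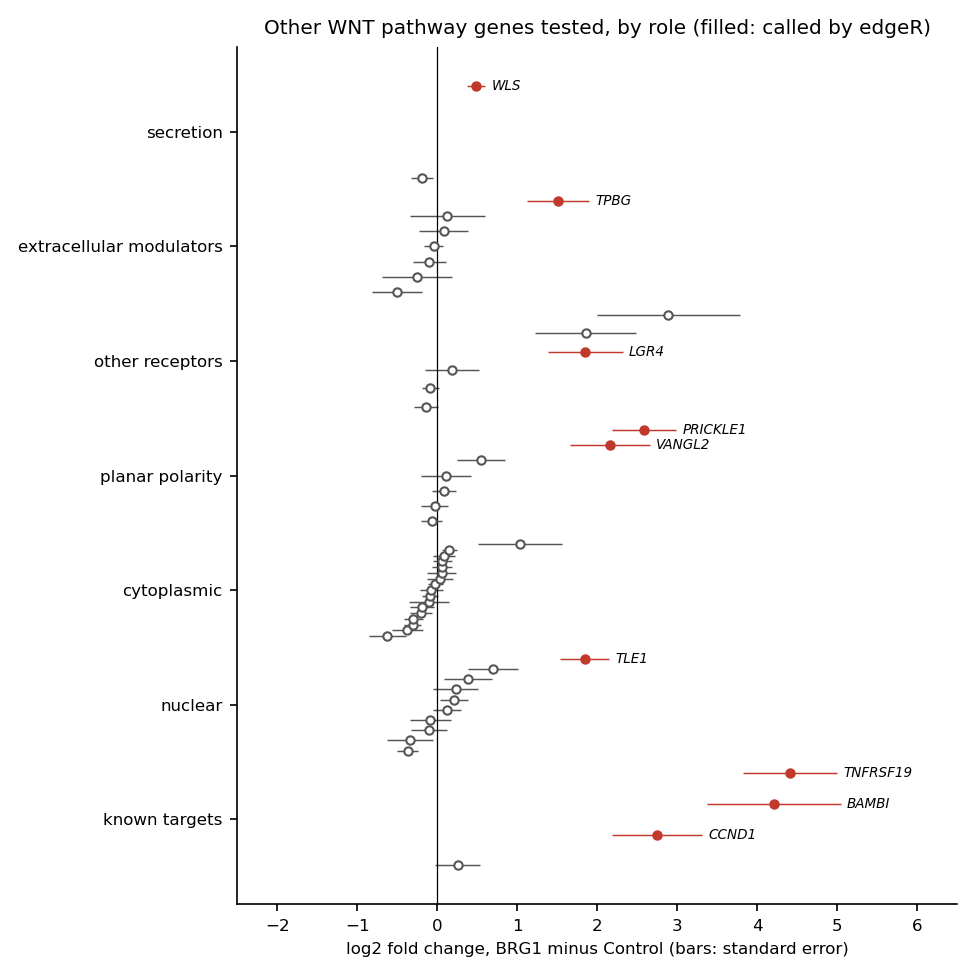
Log2 fold change, BRG1 minus Control, of the 53 other WNT pathway genes tested, in rows by role, with standard errors as bars. The 9 filled and named genes were called higher by edgeR, from 4.42 for TNFRSF19 to 0.49 for WLS, and the row of 17 cytoplasmic genes holds no filled point.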

How the data were processed

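RNA-seq was available for 3 Control and 3 BRG1 samples, grouped by the transfected vector in the labels. Unstranded libraries (500 ng of RNA each) were read as pairs of 78 bases. The authors aligned reads with STAR (2.5.3a) to hg38 and GENCODE v24, used Salmon (0.8.2) for transcript levels and tximport for gene sums. What they deposited are estimated counts (lengthScaledTPM), not divided by library size. Salmon shares reads among similar genes, so overlapping or homologous genes are uncertain.

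Estimated counts were rounded. The main test was edgeR 4.0.16 (quasi-likelihood, TMM, filterByExpr with a minimum count of 10) in R 4.3.3, BRG1 against Control, called at a Benjamini-Hochberg adjusted p under 0.05 over 14246 genes. Standard errors are the fold change divided by the square root of F. The study names DESeq2. DESeq2 1.42.0 was an alternative because, on simulated data from these libraries, its share of false calls exceeded its threshold. The simulated samples held no replicate effect, so the simulation does not cover samples that pair. limma 3.58.1 (voom), other scalings and filters, the replicate block and leaving out each sample were also run. Same-numbered samples correlated by 0.36, 0.34 and 0.48 in their deviations from the group means, so the fits with the replicate block took the numbers to pair the samples. The main test left this pairing out, and its calls and p-values do not use it. p-values measure the spread between these samples, which may be technical.

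Members with a call in edgeR or DESeq2, with or without the block, or a mean of at least 100 normalised counts are given per sample. Of the pathway list up to 3 genes in each direction and CTNNB1 were named by rule. Members and lists were chosen with earlier results of these data known. Coordinates, exon lengths and overlaps come from GENCODE v44 (GRCh38), later than the authors' release; all 111 genes looked up matched. Libraries held 29699741 to 63613710 counts, but counting error stays wide for members with few counts of their own. For LEF1 the scaled ratio of summed counts was 5.52 (95% interval 3.18 to 10.3). The floor used was 3 counts. One further list of cell type markers is not reported here.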

Additional observations from a re-analysis of the deposited data

How the results depend on the processing

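WNT7A, WNT6, FZD7, SFRP1, DKK3, RNF43 and AXIN2 were called higher in all 13 alternative fits, and no named gene reversed its direction with a call. Members called higher (9) ran from 7 (without Control replicate 1 or 2, without BRG1 replicate 2, or at an adjusted p under 0.01) to 12 (DESeq2, and either test with the replicate block). Members called lower (0) were 1 with edgeR and the replicate block and 2 with DESeq2 and the block. Of the other pathway genes, those called higher (9) were 3 at an adjusted p under 0.01 and ran from 3 to 10 when each replicate was left out, and those called lower (0) were 3 and 4 with the block in edgeR and DESeq2. Limma-voom called 9 members and 6 other pathway genes higher. The cause of these shifts was not tested. Apart from the members and pathway genes named with a blocked value, the replicate block changed no call of a named gene. With 3 samples a group, a difference that missed the threshold is not shown to be absent. Depth limits the 12 members that were not tested, which held at most 17.03 counts in any library.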
